A study of Arabidopsis thaliana with 20 samples.

Results

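Rosettes of Arabidopsis thaliana accession Col-0 that had spent 24 h in continuous darkness were compared with rosettes kept in the light. The comparison rests on 4 of the 20 arrays of the series, namely the 2 arrays labelled as the 24 h dark control of shoots and the 2 labelled as the light control of shoots, and takes in all 22746 probe sets that are not manufacturer's controls. All plants were wild type, were raised in soil at 20 °C under a 9 h photoperiod, and carried 9 to 10 leaves when the treatments began 2 h into the light period. The light control is given as time 0 h, so that plants after 24 h of darkness were taken at the same clock time. Light controls stayed in the growth chamber and were watered daily, whereas dark controls stood in the chamber used for submergence and were watered every other day. Chamber and watering went with the groups, and their effects and that of darkness cannot be told apart. The submergence treatments of the series were not compared here. 3 further groups of 2 arrays each served as points of reference: shoots after 7 h of darkness, roots from the light, and roots after 24 h of darkness. Whole shoots were harvested, and in such bulk samples fewer cells of a type and less RNA per cell cannot be told apart.

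A rosette in the light fixes carbon in its chloroplasts, exports part of it as sucrose and lays down starch that carries it through a normal night. When darkness outlasts that reserve, the sugar signal that holds back catabolic genes falls away. The cells then recycle their own proteins and lipids, and the carbon skeletons of branched-chain amino acids and lysine are oxidised in the mitochondria. Genes for growth, for ribosome assembly and for light-dependent pigments are known to be turned down in the same state, while the circadian clock continues to run for some time without light.

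After 24 h of darkness 52.4% of the probe sets differed from the light. In limma's moderated test across all 20 arrays, with Benjamini-Hochberg adjustment over 22746 probe sets, 6144 probe sets were higher in the dark (27.0%) and 5782 were lower (25.4%). Of the 11926 called, 6361 (28.0% of those tested) changed by at least 2-fold. The values are log2 expression values from robust multi-array averaging (RMA), so a difference of 1 is a doubling, and a probe set is called where its adjusted p is under 0.05. The median change over all probe sets was 0.03 on this log2 scale, and the 5th and 95th percentiles were -2.05 and 1.93. Of the 13355 genes with a probe set of their own, 3338 were higher (25.0%) and 3108 lower (23.3%). Because 48.3% of all measured genes were called in either direction, counts of called members in a gene list are read below against that share. The lists were chosen with earlier results of these data known, so that reading is a description and not a test.

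The arrays of each group were close to each other, and light and darkness stood far apart. Across all probe sets Pearson's r was 0.992 between the light arrays and 0.996 between the arrays of 24 h darkness, and 0.859 to 0.863 between the groups. A manufacturer's control probe set for cytosolic large-subunit ribosomal RNA read 11.22 and 11.68 in the light and 13.54 and 13.60 after 24 h of darkness. The gap between the 3′ and 5′ probe sets of actin was 1.49 to 1.51 in the light and 1.51 to 1.68 in the dark. The part of the ribosomal RNA difference in the gene results was not tested. P-values here measure the spread between arrays of 2 replicate experiments, estimated over all 10 groups of the series, roots and submergence included.

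The light arrays differed from each other in more probe sets than the other 4 pairs used here. Over all probe sets, 249 read over 2-fold higher in light replicate 2 and 10 in replicate 1, against 17 and 16 between the arrays of 24 h darkness. Of the 4 measured genes of the touch and wound list, CML38 and STZ were among them. A spiked-in bacterial control transcript, measured near its 5′ end, read 6.39 and 7.43 on the light arrays and 6.64 and 7.14 on the arrays of 24 h darkness. CML38, a calmodulin-like calcium sensor, read 5.16 and 8.44 in the light and 4.94 and 5.03 in the dark. STZ, the zinc finger repressor also known as ZAT10, read 5.05 and 7.75 in the light and 5.39 and 5.18 in the dark. After 7 h of darkness STZ read 6.67 and 6.96. Among the light and 24 h arrays, both genes were high on the second light array alone. On the first light array they lay close to the values of 24 h darkness. The same held for 4 genes chosen after their values were seen. AT3G01830 read 3.59 and 7.40 in the light, AT4G27654 read 4.15 and 7.81, and the jasmonate-related transcription factor gene ORA47 read 5.61 and 8.02. AT4G29780 read 5.83 and 8.70. OPCL1, a coenzyme A ligase gene of jasmonate synthesis that was chosen in the same way, read 7.58 and 9.67 in the light and 6.49 and 6.64 in the dark, so that both light arrays were above the dark arrays. From light to darkness 2 of the 4 listed genes were called lower in the dark, with a median change of -0.87. Without light replicate 2 none of the 4 was called and the median was -0.09, whereas without light replicate 1 all 4 were called, with a median of -1.76. Without dark replicate 1 none was called either, and without dark replicate 2 the count was 1.

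**Figure D1:**
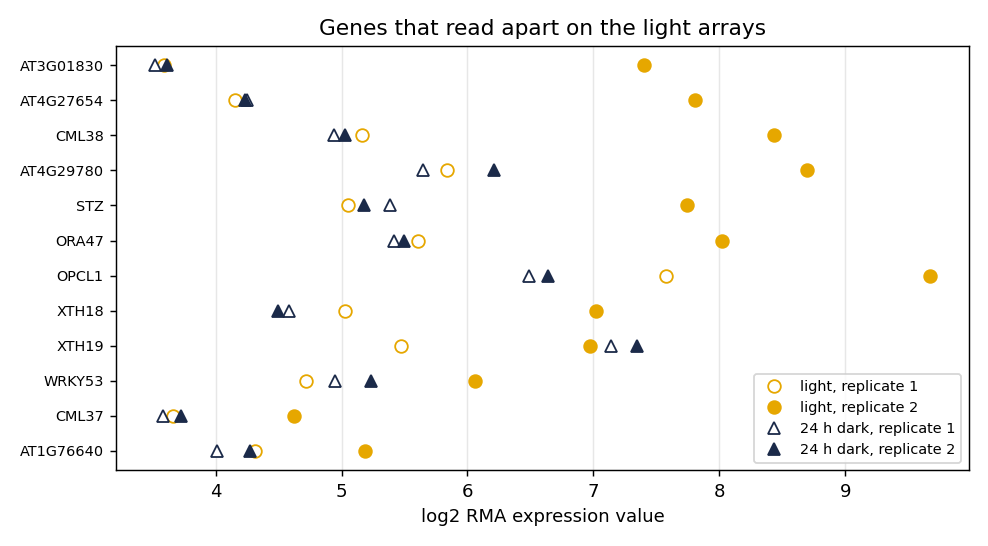
Log2 RMA values (x axis) of 12 genes, 1 row a gene, on the light arrays (circles) and the arrays of 24 h darkness (triangles); open symbols are replicate 1 and filled symbols replicate 2. The filled circles of AT3G01830, AT4G27654, CML38, STZ and ORA47 lie at 7.40 to 8.44, while their open circles lie at 3.59 to 5.61, beside the triangles.

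The largest rise belonged to AT4G33150, annotated as lysine-ketoglutarate reductase/saccharopine dehydrogenase, the bifunctional enzyme that opens lysine breakdown. It read 6.0 and 5.93 in the light and 13.09 and 12.96 after 24 h of darkness. It thus rose 134-fold, by 7.06 ± 0.17 (SE) on the log2 scale (adjusted p = 1.5e-15, n = 2 and 2). Next among the 15 largest rises stood AT5G39520 (6.88 ± 0.48), AT2G15960 (6.86 ± 0.27), AT1G72060 (6.79 ± 0.21) and AT1G19530 (6.71 ± 0.31), for which the annotation used here gives no function. HIS1-3, a linker histone H1 variant known for its response to drought, read 4.43 and 4.37 in the light and 10.61 and 10.98 in the dark, and rose by 6.40 ± 0.25. MCCA and IVD belong to leucine breakdown and are described with that pathway. COR27, a cold- and clock-regulated gene, rose by 5.89 ± 0.17, from 3.82 and 3.92 to 9.77 and 9.74. WES1, also named GH3.5, which joins amino acids to auxin and to salicylic acid, rose by 5.74 ± 0.17, from 6.34 and 6.12 to 11.89 and 12.05. The remaining members, AT4G27450, AT1G19540, AT3G15630, AT3G19390 and AT1G26665, rose by 5.51 to 6.08. In none of the 15 did a light array come within 4 log2 units of a dark array. AT1G72060, AT1G19530, HIS1-3, COR27 and AT3G19390 read under 5 on both light arrays, as did 7814 and 7895 of the probe sets on each. That is the lower end of the array's range, where RMA values compress differences, so the sizes of these rises are less certain.

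**Figure D2:**
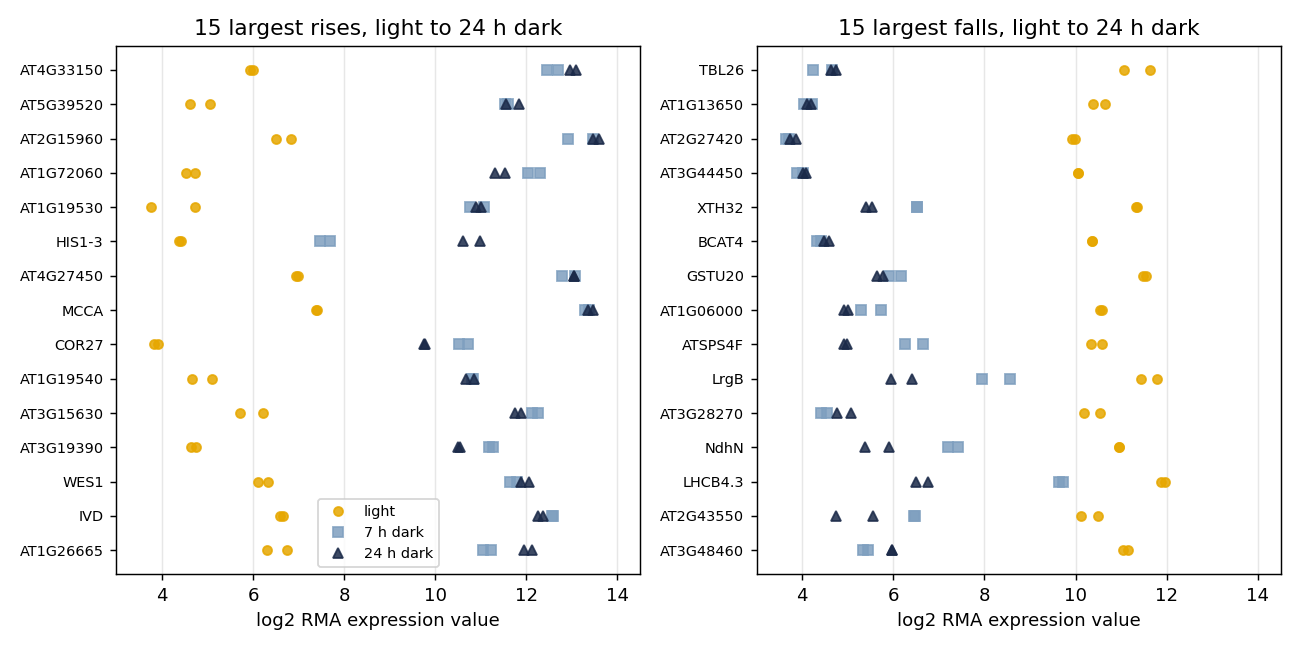
Log2 RMA values (x axis) of the genes with the 15 largest rises (left) and the 15 largest falls (right) from light to 24 h of darkness; each symbol is 1 array, with light as circles, 7 h of darkness as squares and 24 h as triangles. Only genes whose light and 24 h arrays did not overlap were eligible. For most genes the squares already lie beside the triangles, HIS1-3, LHCB4.3 and LrgB being plain exceptions.

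Genes that answer to sugar starvation rose together. All 5 measured members of a list of 36 were called higher, with a median change of 5.22 against 0.03 for all genes. AKINBETA1, a regulatory subunit of the SnRK1 kinase that senses energy shortage, read 7.48 on both light arrays and 12.66 and 12.74 in the dark, a 37.2-fold rise. ATL8, a RING-type ubiquitin ligase gene, rose by 5.43 ± 0.15, and AT4G37220 by 5.46 ± 0.26. AT3G15450 rose by 4.70 ± 0.12. BZIP53, a transcription factor of the starvation response and of seed maturation, rose least, by 1.06 ± 0.13, from 9.85 and 9.79 to 10.87 and 10.88.

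Most measured genes of amino acid breakdown rose. Of 14 measured genes 12 were higher, 1 was lower and 1 was not called, with a median change of 3.01. MCCA, the biotinylated subunit of methylcrotonyl-CoA carboxylase in leucine breakdown, read 7.39 and 7.41 in the light and 13.35 and 13.47 in the dark, a rise of 6.01 ± 0.12 (adjusted p = 1.9e-16). IVD, isovaleryl-CoA dehydrogenase, which acts a step earlier and passes electrons on to the electron transfer flavoprotein, rose by 5.69 ± 0.13, from 6.66 and 6.59 to 12.37 and 12.26. MGL, methionine gamma-lyase, rose by 5.31 ± 0.23, from 7.58 and 7.29 to 12.77 and 12.73. The exception was AT5G09300, which fell by 1.20 ± 0.19, from 5.95 and 5.81 to 4.70 and 4.66.

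Autophagy, the delivery of cell contents to the vacuole, was raised nearly throughout its measured genes. Of 16 genes 15 were called higher and none lower, with a median change of 1.65. The larger changes lay among the ATG8 genes, whose ubiquitin-like products are anchored in the autophagosome membrane. ATG8B read 6.50 and 6.46 in the light and 10.83 and 10.88 in the dark, a 20.8-fold rise. ATG8E rose by 3.81 ± 0.15, ATG8H by 2.74 ± 0.15 and APG8A, also named ATG8A, by 2.51 ± 0.16. The gene that was not called changed by 0.43.

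Lipid and starch turnover moved less evenly. Of 5 measured genes of the fatty acid breakdown list 3 rose. PPDK, pyruvate orthophosphate dikinase, is on that list although it does not itself break down fatty acids. It rose by 3.99 ± 0.15, and SDP1, the triacylglycerol lipase that mobilises seed oil, by 2.61 ± 0.16. AIM1, a multifunctional enzyme of peroxisomal beta-oxidation, rose by 1.19 ± 0.13. ICL, isocitrate lyase of the glyoxylate cycle, changed by 0.17 ± 0.17 (adjusted p = 0.45), and SDP1-LIKE by 0.12 ± 0.16 (adjusted p = 0.57). Both read under 5.3 on every light and dark array. Of 6 starch genes, PWD, phosphoglucan water dikinase of starch degradation, rose by 0.77 ± 0.14. SBE2.2, a starch branching enzyme, fell by 1.25 ± 0.14. The ADP-glucose pyrophosphorylase subunit gene APL3 fell by 2.91 ± 0.17, from 7.76 and 7.98 in the light to 5.07 and 4.85, and its relative APL4 fell by 0.56 ± 0.11. APL4 read 3.99 and 4.13 in the light and 3.52 and 3.47 in the dark, at the lower end of the array's range. The degradation enzyme genes DPE1 (0.22 ± 0.16) and AMY1 (0.02 ± 0.16) were not called.

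**Figure D3:**
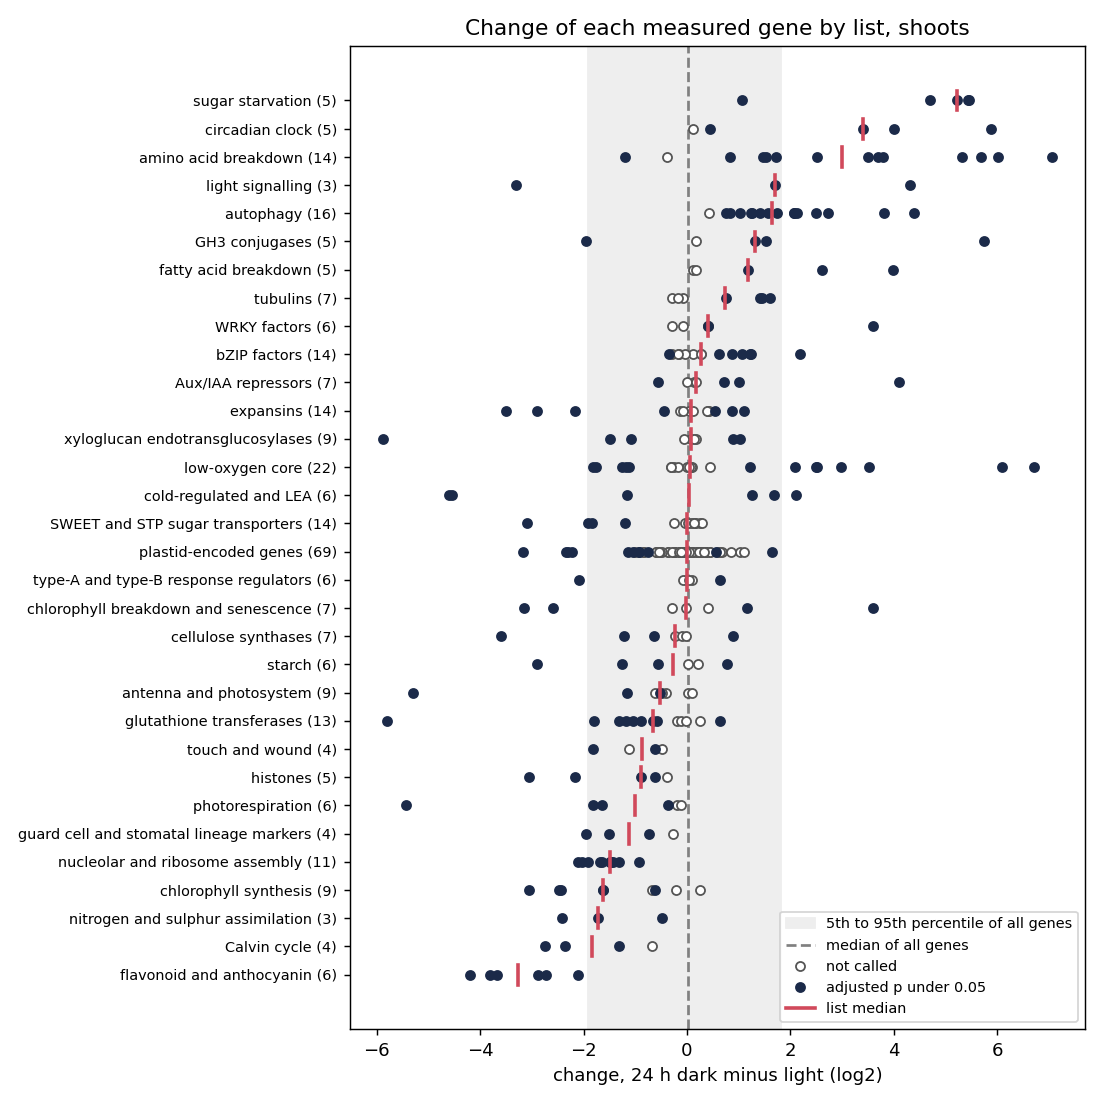
Change from light to 24 h of darkness in shoots (x axis, log2) of every measured gene in 32 lists and families, ordered by the list median (red bar); the number of genes is in brackets. Filled points are genes with an adjusted p under 0.05, the grey band runs from the 5th to the 95th percentile of all genes (-1.91 to 1.81), and the list medians run from 5.22 for sugar starvation to -3.27 for flavonoid and anthocyanin genes.

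The largest falls included genes of cell walls, of the chloroplast and of sulphur-rich defence compounds. TBL26, a member of the TRICHOME BIREFRINGENCE-LIKE family of wall polysaccharide acetylation, read 11.06 and 11.64 in the light and 4.63 and 4.75 in the dark. It fell 101-fold, by 6.66 ± 0.17. XTH32, a xyloglucan endotransglucosylase/hydrolase gene, fell by 5.88 ± 0.22, from 11.34 on both light arrays to 5.40 and 5.52. BCAT4, the aminotransferase that opens methionine chain elongation for glucosinolates, fell by 5.83 ± 0.19, from 10.36 and 10.35 to 4.47 and 4.59. In darkness TBL26 and BCAT4 were at the lower end of the array's range, where 8116 and 8089 of the probe sets read under 5. GSTU20, a tau-class glutathione transferase associated with glucosinolate synthesis, fell by 5.81 ± 0.24. ATSPS4F, a sucrose-phosphate synthase that commits triose phosphates to sucrose, fell by 5.50 ± 0.16, from 10.33 and 10.58 to 4.99 and 4.92. LrgB, whose product is known as the glycolate/glycerate transporter PLGG1 of the chloroplast envelope, fell by 5.44 ± 0.26, from 11.44 and 11.79 to 6.40 and 5.95. NdhN, a subunit of the chloroplast NADH dehydrogenase-like complex, fell by 5.32 ± 0.19, from 10.96 and 10.95 to 5.90 and 5.37. Among loci with no function in the annotation used, AT1G13650, AT2G27420 and AT3G44450 fell by 6.38, 6.15 and 6.01. The other 4 without one (AT1G06000, AT3G28270, AT2G43550 and AT3G48460) fell by 5.14 to 5.61.

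In the photosystem and antenna list 1 gene fell far and the others changed less. Of 9 measured genes, from a list of 56, 3 fell and none rose, and the median change was -0.52. The summed linear level of the 9 genes in shoots was 100000 to 101000 in the light and 70400 to 74700 after 24 h of darkness. LHCB4.3, which encodes an isoform of the minor antenna protein CP29, read 11.97 and 11.89 in the light and 6.75 and 6.49 in the dark, a 39.6-fold fall. Its paralogue LHCB4.1 read 13.74 and 13.81 in the light and 13.74 and 13.85 in the dark. LHCB4.2 fell by 0.51 ± 0.21 (adjusted p = 0.048), a call that was lost without dark replicate 2, light replicate 1 or light replicate 2, at adjusted p-values of 0.083 to 0.28. It was also lost with the replicate block (adjusted p = 0.055), with quantile normalization (0.057) and with median centring (0.087). The isoform genes of 1 antenna protein therefore gave changes of 0.02, -0.51 and -5.31. ATPC1, the gamma subunit of the chloroplast ATP synthase, fell by 1.17 ± 0.17. The other 5 genes changed by -0.63 to 0.10 without a call. All 9 genes but LHCB4.3 read above 13 in the light, near the top of the array's range (highest value 14.39 and 14.47), where RMA values compress differences. When the shoot arrays alone were fitted, 7 of the 9 were called lower.

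Genes of carbon fixation, photorespiration and chlorophyll synthesis that were called all fell. Of 4 Calvin cycle genes 3 fell: SBPASE, sedoheptulose-bisphosphatase, by 2.75 ± 0.16, RCA, rubisco activase, by 1.32 ± 0.31, and AT1G56190, which fell by 2.36 ± 0.16. SBPASE read 13.09 and 13.06 in the light and 10.31 and 10.35 in the dark. PRK, phosphoribulokinase, changed by -0.67 ± 0.28 (adjusted p = 0.053). It was called lower in the fit of the shoot arrays alone (adjusted p = 0.00064), in that of the 4 arrays (0.0019), with the replicate block (0.047) and with a filter on low values (0.042). Of 6 photorespiration genes 4 fell, LrgB most, then AT1G32470 by 1.81 ± 0.19 and AT1G11860 by 1.64 ± 0.15. The fall of AT1G80380 by 0.37 ± 0.14 was not called without dark replicate 2, light replicate 1 or light replicate 2 (adjusted p = 0.089 to 0.28). HPR, peroxisomal hydroxypyruvate reductase, read 13.82 and 13.76 in the light and 13.55 and 13.65 in the dark, and was not called (adjusted p = 0.67).

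Of 9 chlorophyll synthesis genes 6 fell and none rose, with a median change of -1.62. CHLI2, an ATPase subunit of magnesium chelatase, fell by 3.06 ± 0.14, from 9.84 and 10.06 to 7.00 and 6.77. GSA1, glutamate-1-semialdehyde aminotransferase, fell by 2.48 ± 0.16, and the uroporphyrinogen decarboxylase genes HEME2 and HEME1 by 2.43 ± 0.15 and 1.63 ± 0.12. HEMB1 fell by 1.62 ± 0.13 and CHLM, the magnesium-protoporphyrin methyltransferase, by 0.61 ± 0.12. PORB, the light-dependent protochlorophyllide oxidoreductase, stood at 10.31 and 10.46 in the light and 10.09 and 10.25 in the dark. HEMA2, a glutamyl-tRNA reductase isoform, changed by 0.25 ± 0.21. Neither was called, nor was AT1G74470, annotated as geranylgeranyl reductase (-0.68 ± 0.37). The last was called lower in the fit of the shoot arrays alone (adjusted p = 0.003) and in that of the 4 arrays (0.0041).

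Flavonoid and anthocyanin genes fell together. All 6 flavonoid and anthocyanin genes fell, with a median change of -3.27. DFR, dihydroflavonol reductase, the entry to anthocyanins, read 8.82 and 8.70 in the light and 4.29 and 4.82 in the dark, an 18.4-fold fall. The glycosyltransferase genes UGT78D1, UGT78D2 and UF3GT fell by 3.81 ± 0.20, 2.88 ± 0.18 and 2.73 ± 0.13. AT4G14090 fell by 3.67 ± 0.19, and the malonyltransferase gene AT5MAT by 2.11 ± 0.16. Both measured glucosinolate genes fell as well. Of 3 measured genes of nitrogen and sulphur assimilation, APS3, ATP sulphurylase, fell by 2.42 ± 0.18 and SIR, sulphite reductase, by 1.72 ± 0.11, and AT5G41670 fell by 0.49 ± 0.14. Among 13 glutathione transferases 8 fell, 1 rose and 4 were not called. GSTU16 rose by 0.64 ± 0.14, while GSTU27, GSTU26 and GSTU23 fell by 1.81, 1.31 and 1.17.

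Genes for making ribosomes and chromatin fell. All 11 measured genes of the nucleolar and ribosome assembly list were lower, with a median change of -1.50 and changes from -0.94 to -2.10. NRPA2, the second-largest subunit of RNA polymerase I that transcribes ribosomal RNA genes, read 7.65 and 7.71 in the light and 6.26 and 6.23 in the dark, a fall of 1.43 ± 0.14. AT1G52930 fell most, by 2.10 ± 0.13, from 9.50 and 9.49 to 7.45 and 7.33. The light and dark arrays of these 11 genes did not overlap, which also held for 9409 of all 13355 genes. The control probe set for large-subunit ribosomal RNA read higher in the dark, as given above. Labelling on this array starts from polyadenylated tails, so that reading is not taken here as a measure of ribosomal RNA amount. Of 5 histone genes 4 fell. HTB2 and HTB1, which encode histone H2B, fell by 3.05 ± 0.16 and 2.17 ± 0.16, and HTR12, the centromeric histone H3, by 0.89 ± 0.18. HTB4, another H2B gene, read 11.47 and 11.31 in the light and 11.05 and 10.96 in the dark (adjusted p = 0.054), and was called lower in the fit of the shoot arrays alone (adjusted p = 0.021). HIS1-3, not in that list, rose by 6.40.

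The stomatal lineage list fell in 3 of its 4 measured genes. SPCH, the transcription factor that starts the lineage, read 6.27 and 5.76 in the light and 4.17 and 3.97 in the dark, a fall of 1.95 ± 0.16. STOMAGEN, a peptide from the mesophyll that promotes stomata, fell by 1.51 ± 0.13, from 9.43 and 9.30 to 8.01 and 7.71. MUTE, which acts after SPCH, fell by 0.73 ± 0.17, although without dark replicate 1 the adjusted p was 0.06. FMA, also named FAMA, changed by -0.26 ± 0.15 (adjusted p = 0.18). MUTE was low throughout, at 4.93 and 4.98 in the light and 3.89 and 4.55 in the dark. Among genes above log2 6 on at least 2 arrays, 1 of this list was called lower.

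Calls in the families of wall loosening went both ways, as they did over all genes (25.0% higher and 23.3% lower). Among 14 expansins, which loosen walls at acid pH, 4 fell and 3 rose, near those shares. EXPB3 fell by 3.50 ± 0.27, from 8.99 and 8.22 to 5.09 and 5.12, EXPB1 fell by 2.91 ± 0.25 and EXPA15 fell by 2.17 ± 0.23. EXPA8 rose by 1.10 ± 0.13, from 8.05 and 8.02 to 9.18 and 9.09, and EXPA16 by 0.86 ± 0.20. EXPA20, higher by 0.55, lost its call without dark replicate 2 or light replicate 2 (adjusted p = 0.12 and 0.1). EXPA21, lower by 0.44, lost its call without either dark array or light replicate 1 (adjusted p = 0.073 to 0.17). Of 9 xyloglucan endotransglucosylase genes 3 fell and 2 rose. XTH16 fell by 1.09 ± 0.21 and XTH33 rose by 0.88 ± 0.19, beside XTH32 above. XTH18 read 5.02 and 7.02 in the light and 4.58 and 4.50 in the dark, and without light replicate 2 it was not called (adjusted p = 0.23). XTH19 read 5.47 and 6.97 in the light and 7.14 and 7.35 in the dark, and it was not called without either dark array or without light replicate 1 (adjusted p = 0.059 to 0.56). Of 7 tubulin genes 4 rose and none fell: TUB6 by 1.61 ± 0.15, TUB5 by 1.44 ± 0.17, TUA1 by 1.41 ± 0.16 and TUB1 by 0.75 ± 0.23. Without dark replicate 1 TUB1 was not called (adjusted p = 0.066). In the cellulose synthase superfamily CSLA01, of the mannan synthase family, fell by 3.59 ± 0.19 and CSLC5, of xyloglucan synthesis, by 1.22 ± 0.16. CSLA03 fell by 0.63 ± 0.11 and CSLD2 rose by 0.89 ± 0.20, while the other 3 of 7 were not called.

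Of 7 Aux/IAA genes 3 rose and 1 fell, and of 5 GH3 genes 3 rose and 1 fell. IAA29, an Aux/IAA repressor under the control of PIF factors, read 6.12 and 5.22 in the light and 9.70 and 9.84 in the dark, a 17.1-fold rise. IAA18 and IAA34 rose by 1.00 ± 0.11 and 0.71 ± 0.14, IAA33 fell by 0.56 ± 0.14, and the other 3 Aux/IAA genes measured were not called. IAA33 was low throughout, at 4.41 and 4.45 in the light and 3.81 and 3.94 in the dark. Among genes above log2 6 on at least 2 arrays, no Aux/IAA gene was called lower. Among 5 GH3 genes, GH3.17 and GH3.3 rose by 1.53 ± 0.18 and 1.32 ± 0.24 beside WES1, and GH3.9 fell by 1.96 ± 0.11. GH3.1 changed by 0.18 ± 0.13. Of the cytokinin response regulators ARR15, a negative regulator of the pathway, fell by 2.09 ± 0.15, from 7.41 and 6.95 to 5.15 and 5.04. RR16 rose by 0.65 ± 0.20, a call lost without light replicate 2 or dark replicate 1 (adjusted p = 0.27 and 0.059), and the other 4 were not called.

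Light signalling genes moved both ways. HYH, the homologue of the light-stabilised factor HY5, read 7.91 and 8.18 in the light and 4.90 and 4.60 in the dark, a fall of 3.30 ± 0.14. FHL, which with FHY1 carries phytochrome A into the nucleus, rose by 4.32 ± 0.15, from 3.78 and 4.06 to 8.28 and 8.19. BIM1, a partner of the brassinosteroid factor BES1, rose by 1.70 ± 0.14. These 3 were the only measured genes of a list of 42.

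Clock-list genes were higher in 4 of 5 cases, although the harvests were at the same clock time. COR27 has been given above, AT4G33980 rose by 4.00 ± 0.17 and AT1G69570 by 3.41 ± 0.15. AT5G52660 rose by 0.45 ± 0.15, a call lost without light replicate 1 or either dark array (adjusted p = 0.063 to 0.27). GI, GIGANTEA, a clock component that normally peaks late in the day, read 6.22 and 6.23 in the light and 6.51 and 6.19 after 24 h of darkness (adjusted p = 0.65). Of the cold-regulated and LEA genes 3 rose and 3 fell. COR15A and COR15B, which encode chloroplast-protecting LEA proteins, fell by 4.60 ± 0.16 and 4.55 ± 0.19, and COR15A went from 11.96 and 12.10 to 7.50 and 7.36. AT1G78070 fell by 1.17 ± 0.24. COR47, a dehydrin, rose by 2.12 ± 0.13, from 10.26 and 10.72 to 12.58 and 12.63. M10 rose by 1.68 ± 0.23 and AT2G41190 by 1.26 ± 0.30.

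Leaf senescence genes gave no common direction, as 2 of 7 rose and 2 fell around a median of -0.01. WRKY22, a transcription factor of defence and of dark-induced senescence, read 5.50 and 5.62 in the light and 9.19 and 9.12 in the dark, a 12.1-fold rise. SAG101, a lipase-like regulator of senescence and immunity, rose by 1.17 ± 0.17. SAG29, a SWEET family sugar carrier, fell by 2.59 ± 0.14, from 8.33 and 7.98 to 5.49 and 5.63, and AT1G44000 fell by 3.15 ± 0.18. NOL, a chlorophyll b reductase, stood at 9.56 and 9.62 in the light and 9.54 and 9.62 in the dark. WRKY6 (0.41 ± 0.21) and WRKY53 (-0.30 ± 0.33) were not called. WRKY53 read 4.72 and 6.06 in the light. Among 6 WRKY genes WRKY42 also rose, by 0.40 ± 0.11, from low values of 4.55 and 4.51 to 4.90 and 4.96. Among WRKY genes above log2 6 on at least 2 arrays, 1 was called higher.

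SWEET sugar carriers that were called fell, and basic leucine zipper (bZIP) factors that were called mostly rose. Of 14 SWEET genes, the only members of the sugar transporter list with a value here, 4 fell and none rose, with a median of 0.01: SWEET17, a vacuolar fructose carrier, by 3.09 ± 0.26, SWEET13 by 1.92 ± 0.17, SWEET4 by 1.83 ± 0.18 and SWEET1 by 1.20 ± 0.16. SAG29, counted above under its senescence name, is a further SWEET carrier that fell. Of 14 bZIP genes 6 rose and 1 fell, with a median of 0.28, BZIP61 most, by 2.19 ± 0.17. BZIP34 and BZIP28, the latter a sensor of unfolded proteins in the endoplasmic reticulum, rose by 1.23 ± 0.13 and 1.23 ± 0.12. BZIP17 fell by 0.35 ± 0.13, a call lost under median centring (adjusted p = 0.085) and without dark replicate 1 or either light array (adjusted p = 0.087 to 0.21). Among genes above log2 6 on at least 2 arrays the median was -1.20 for SWEET and 0.75 for bZIP genes. Of 22 genes of a core list of low-oxygen responses, in plants that were not submerged, 8 rose and 5 fell, with a median of 0.05. Without dark replicate 1, 3 were called lower. AT1G19530 and AT4G27450 rose by 6.71 and 6.08, AT4G39675 by 3.52 ± 0.41 and AT1G33055 by 2.98 ± 0.23. AT5G45960, AT5G47060 and AT4G10270 fell by 1.77, 1.25 and 1.17. The call of AT4G10270 was lost without dark replicate 1 (adjusted p = 0.054), and that of CML38 without light replicate 2 or either dark array (adjusted p = 0.09 to 0.81), with trend and robust fitting (0.11) and in the fit of the shoot arrays alone (0.075).

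Chloroplast-encoded genes stayed close to their light level in the median, at 0.01 over 69 genes. 9 were called lower and 2 higher, a smaller share than among all genes. Labelling on this array starts from polyadenylated tails, which plastid messages mostly lack. rps16, for a plastid ribosomal protein, read 7.99 and 8.21 in the light and 4.78 and 5.09 in the dark, a fall of 3.17 ± 0.32. psaJ, rpl33 and rps18 carry consecutive locus tags in the plastid genome (ARTHCP042, ARTHCP043 and ARTHCP044). They fell by 2.22 ± 0.31, 2.34 ± 0.20 and 2.30 ± 0.25, and rpl33 went from 11.52 and 11.20 to 8.81 and 9.24. psbE rose by 0.57 ± 0.15. atpI rose by 1.65 ± 0.46, a call lost without dark replicate 2 or light replicate 1 (adjusted p = 0.092 and 0.07). Without dark replicate 1, 4 were called lower and 7 higher, and without dark replicate 2 or light replicate 1 only 1 was called higher. In a fit of the 4 arrays alone, 15 were called lower and 5 higher.

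Most of the difference was in place after 7 h, and fewer genes moved from 7 h to 24 h of darkness. The 7 h harvest fell near the end of the normal light period and the 24 h harvest near its start, so duration and clock time cannot be told apart here. In limma's test 2033 probe sets were higher at 24 h than at 7 h (8.94%) and 2151 lower (9.46%), so that 18.4% were called, and 690 changed by at least 2-fold (3.03%). Without any 1 of the 4 dark arrays the count fell from 4184 to between 2464 and 2728. With median centring 2246 probe sets were higher at 24 h and 1969 lower, so the larger side depended on the scaling. The same arrays of 24 h enter both comparisons, and the values below are given side by side for that reason. HIS1-3 read 7.68 and 7.46 at 7 h and 10.61 and 10.98 at 24 h, a further rise of 3.22. AT5G01740 read 6.46 and 6.19 in the light, 8.02 and 7.80 at 7 h and 10.36 and 10.40 at 24 h. Both genes climbed at each step. AT1G64500 read 9.34 and 9.32 in the light, 6.19 and 6.36 at 7 h and 9.23 and 9.24 at 24 h. It was low at 7 h only, with a difference of 2.96 between the dark harvests. AT2G41250 and AT5G15950 also rose between them, by 2.84 and 2.93, the former to above its light level and the latter to 1.33 below it.

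The 5 largest falls after 7 h belonged to COR15B, COR15A, AT4G30650, AT2G43620 and LHCB4.3. COR15B read 9.11 and 9.66 at 7 h and 5.88 and 5.64 at 24 h, a fall of 3.63 (adjusted p = 1.4e-09). COR15A fell by 3.42, from 10.80 and 10.90 at 7 h. LHCB4.3 read 9.65 and 9.73 at 7 h, and fell by a further 3.06. For COR15B, COR15A and LHCB4.3 more of the log2 change lay after 7 h than before. AT4G30650 read 9.97 and 9.65 in the light, 9.72 and 10.15 at 7 h and 6.74 and 6.90 at 24 h. AT2G43620 read 5.04 and 5.38 in the light, 10.36 and 10.24 at 7 h and 6.99 and 7.46 at 24 h. It was transiently high, as was GI, at 9.08 and 8.91 at 7 h. GH3.3, at 9.12 and 8.92, and PORB, at 11.47 and 11.57, were likewise highest at 7 h.

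Several lists held genes that moved between 7 h and 24 h. Of all genes 16.0% were called between 7 h and 24 h, 7.5% higher and 8.45% lower. Against that, 6 of 9 chlorophyll synthesis genes fell over this interval, with a median of -0.59. In the nucleolar list 5 of 11 fell further, with a median of -0.47, and 3 of 6 photorespiration genes did so, with a median of -0.57. SBPASE fell by a further 1.49, from 11.78 and 11.88. Among the 14 genes of amino acid breakdown 1 was called between 7 h and 24 h, and among 16 autophagy genes 3. The 5 sugar starvation genes changed by -0.37 to 0.37, at adjusted p-values of 0.095 to 0.5 in limma's test. AT4G33150 was at 12.70 and 12.45 by 7 h, and TBL26 at 4.64 and 4.23. Of 6 flavonoid genes 2 rose after 7 h, UGT78D2 by 0.72 and UGT78D1 by 0.63, both remaining below their light level.

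**Figure D4:**
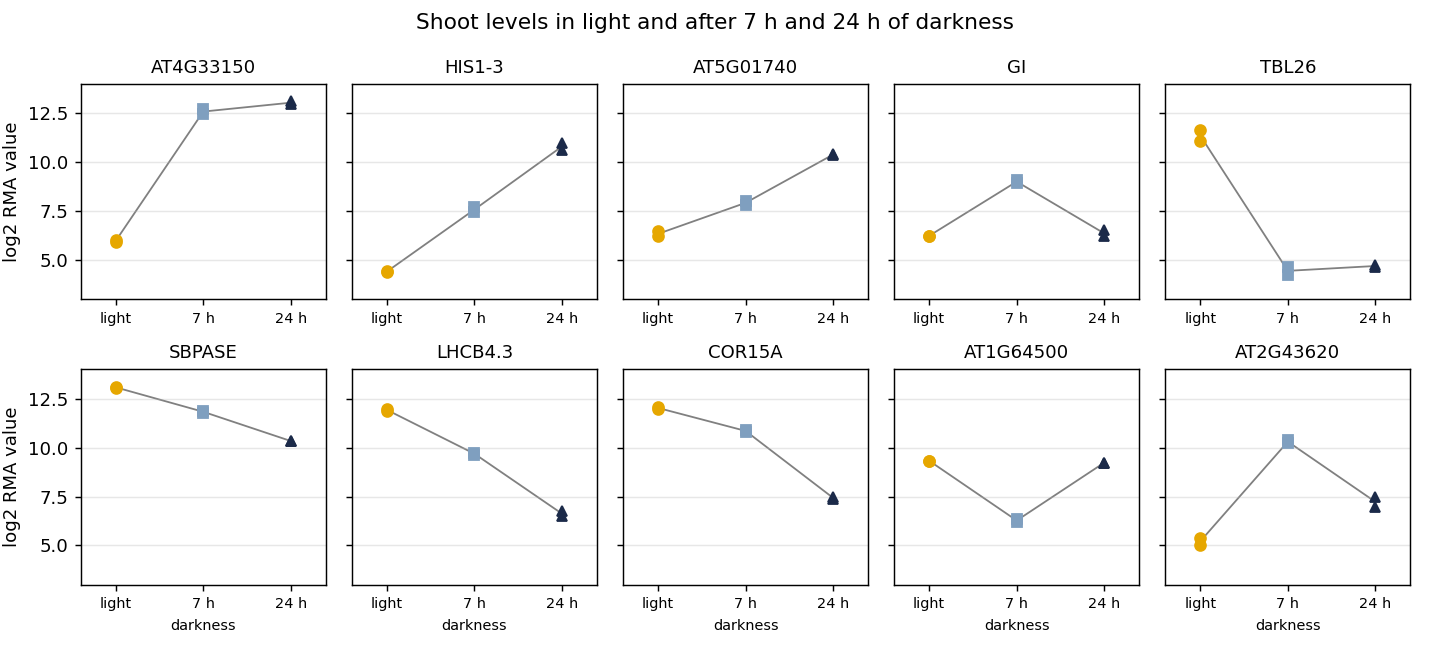
Log2 RMA values (y axis) of 10 genes in shoots in the light and after 7 h and 24 h of darkness (x axis); points are arrays and the grey line joins group means. AT4G33150 and TBL26 reach their dark level by 7 h, HIS1-3, AT5G01740, LHCB4.3 and COR15A change mostly or equally after 7 h, and GI, AT1G64500 and AT2G43620 turn back.

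Roots of the same kind of plants, kept in the dark for 24 h, gave a response of similar extent, with 12016 probe sets called (52.8%) and 49.3% of genes, 26.2% higher and 23.1% lower. The change in shoots differed from that in roots for 8998 probe sets in limma's test of the difference, 4957 with the shoot change above the root change (21.8%) and 4041 below it (17.8%), together 39.6%. With median centring 4465 probe sets were above and 4612 below, so the larger side depended on the scaling. Among genes the difference was called for 35.7%, 20.0% above and 15.7% below. Shoot and root comparisons share no array. The 5 largest differences below the root change all belonged to genes that fell in shoots and were at the lower end of the array's range in roots: TBL26, AT1G13650, AT2G27420, NdhN and AT3G44450. In roots they read 3.27 to 4.84 in the light, where a fall could not be measured. TBL26, for example, read 4.27 and 4.40 in light roots and 4.07 and 4.14 in dark roots.

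The 5 largest differences above the root change came mostly from falls in roots. AT5G01740 rose by 4.05 ± 0.19 in shoots and fell by 3.94 in roots, from 9.93 and 10.49 to 6.33 and 6.21. UGT72E1, a glucosyltransferase of lignin precursors, rose in shoots by 3.77 ± 0.17, from 5.88 and 5.92 to 9.75 and 9.60, and fell in roots by 1.90. These 2 genes moved in opposite directions in the organs, and their differences were 7.99 and 5.68. AT1G73120 and AT3G12900 fell by 6.10 and 6.57 in roots and were not called in shoots (adjusted p = 0.13 for both). In light shoots AT1G73120 read 4.92 and 4.56 and AT3G12900 read 5.57 and 4.76, low values from which a large fall could not be measured. XTH19 fell by 5.40 in roots, and its shoot value is uncertain as given above.

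Whole lists showed the same contrast between the organs, and others ran alike. Xyloglucan endotransglucosylase genes fell in roots in 8 of 9 cases and expansins in 10 of 14, against 3 and 4 in shoots, and the difference itself was called for 8 of 9 and 10 of 14, with 1 expansin and XTH32 falling below the root change. Part of that contrast could not have come out otherwise, since XTH20, XTH21 and XTH26 read 3.73 to 4.12 in light shoots. That is the lower end of the array's range, where a fall could not be measured. EXPA7, at 4.60 and 4.26, and EXPA18, at 5.37 and 5.13, were likewise low there. Tubulins fell in 6 of 7 cases in roots, and the difference was called for 6. TUB1 fell by 4.93 in roots, from 10.23 and 10.22 to 5.22 and 5.38. All 11 nucleolar genes fell in roots too, with a median of -1.24, and the difference was called for 3. Amino acid breakdown rose for 12 of 14 genes in roots, with a median of 1.87, and the difference was called for 8. Autophagy genes rose in 12 of 16 cases in roots, with a median of 0.95, and the shoot change was the larger for 13. ATG8H rose in shoots by 2.74 and fell in roots by 0.84.

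Photosystem and antenna genes read higher in dark than in light roots, where their level was far below that in shoots. Of the 9 antenna and photosystem genes 5 were higher in dark than in light roots and none was lower, and for 6 the difference between the organs was called. LHCB4.1 read 6.57 and 6.90 in light roots and 10.34 and 9.97 in dark roots, and PSAN, a photosystem I subunit, read 4.83 and 5.94 against 9.13 and 8.52. The summed linear level of the 9 genes was 448 to 645 in light roots and 2470 to 2870 in dark roots, beside 100000 to 101000 in light shoots. Whether shoot tissue in the root samples had a part in this was not tested. For the 6 measured root markers the summed level in shoots was 823 to 890 in the light and 769 to 832 in the dark, against 21200 to 23200 in light roots. 1 of the 6, AT4G11290, was lower in dark than in light shoots, by 1.57 ± 0.18.

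**Figure D5:**
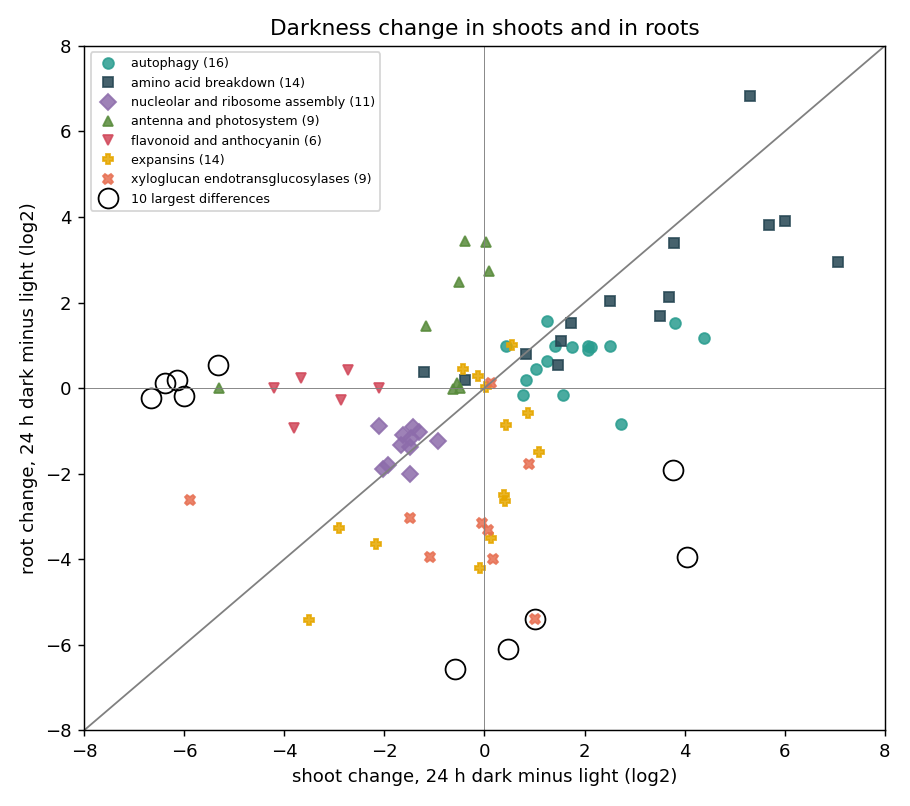
Change from light to 24 h of darkness in shoots (x axis, log2) against the change in roots (y axis, log2) for the genes of 7 lists; each point is 1 gene, the diagonal marks equal change, and black rings mark the genes with the 10 largest differences, whether or not they are in a list. Nucleolar genes lie near the diagonal, expansin and xyloglucan endotransglucosylase genes mostly below it, and the 5 antenna genes called higher in dark roots far above 0 on the root axis.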

How the data were processed

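Whole rosettes and roots had been profiled on Affymetrix ATH1 arrays from 500 ng of total RNA. The authors deposited log2 values made with RMA in the affy package, per the submitters' processing notes (the version is not given in the sources used here). RMA subtracts background, forces all arrays to 1 distribution and summarises probes, so values are relative within an array and changes are compressed at both ends of the range. The 64 control probe sets were left out of the tests. A model of 10 group means over 20 arrays was fitted with limma 3.58.1 in R 4.3.3 (residual df 10), contrasts were tested two-sided with Benjamini-Hochberg adjustment over 22746 probe sets, and the scripts were tested on simulated data. Replicate numbers were not used as a block. The number of arrays, 2 a group, limits the precision.

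Of the probe sets, 13513 named 1 gene, 503 several and 8730 none in the platform annotation. Symbols were updated through RefSeq (TAIR10.1), which matched 13436. A gene's value is that of its brightest probe set naming it alone. Named genes were the 15 largest rises and falls in shoots and the 5 largest in each direction for the other comparisons. These largest changes were drawn only from called genes without overlap between the arrays, or array differences, compared. Of each list, up to 4 called genes in each direction were named, or all members where 12 or fewer were measured. Members and lists were chosen with earlier results of these data known. Of 680 listed pathway and marker genes 154 were measured by such a probe set. Of 55 lists and families 33 had at least 3 measured genes, and 15 had none. Promoter sequences were not used here.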

Additional observations from a re-analysis of the deposited data

Results flagged for a closer look

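The difference between the darkness responses of shoots and roots, tested as a contrast of contrasts in limma, was called for 8998 probe sets. The named genes with the largest such differences are given as shoot change minus root change on the log2 scale, each called in that test. Above 0 stood AT5G01740 (7.99), AT1G73120 (6.57), XTH19 (6.42), AT3G12900 (5.97) and UGT72E1 (5.68). Below 0 stood AT1G13650 (-6.51), TBL26 (-6.43), AT2G27420 (-6.33), NdhN (-5.86) and AT3G44450 (-5.82). The latter 5 read 3.27 to 4.84 on the light root arrays. The flagged results hold no search for single arrays that stand apart. The difference between the 2 light arrays of shoots is described above.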

How the results depend on the processing

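The count of 11926 probe sets from light to 24 h of darkness lay between 10717 and 10953 when single arrays were left out, and that of 8998 for shoots against roots between 8038 and 8484. Leaving out any of the 4 dark arrays of the 24 h and 7 h comparison lowered its count from 4184 to between 2464 and 2728. In these fits the lone array of a group is assumed to vary like the other groups. A 2-fold minimum left 6361, 690 and 5179, and 1-gene probe sets alone gave 6475, 2079 and 4770, where fewer probe sets were tested. Replicate numbers did not pair the arrays (correlations of same-numbered deviations from -0.14 to 0.16), and with the replicate block the counts were 11912, 4142 and 8978. The other alternatives (a filter on low values, renormalization, median centring, trend and robust fitting, fewer arrays) kept all 3 counts within 1.5 times. No scaling moved the share of higher calls by over 10 percentage points, but median centring changed which side was larger. It gave 4465 above and 4612 below for shoots against roots, and 2246 higher and 1969 lower for 24 h against 7 h. Among 223 named genes over 13 alternatives, 2736 of 2876 values kept direction and call, 100 lost the call (26 of them by the 2-fold minimum) and 38 gained it. With single arrays left out, the change of AT4G29780 ran from -2.77 without light replicate 1 to 0.094 without light replicate 2, and that of AT4G27654 from -3.57 to 0.088. The values above 0 were not called, and the cause was not tested. The planned share of promoters with motifs was not run.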

Other observations

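Gene symbols sharing a stem were counted after the data had been seen, for stems with at least 5 measured genes, as a description without a test. All 5 CRR genes, named for chlororespiratory reduction and mostly needed to build or edit the chloroplast NADH dehydrogenase-like complex, were called lower in shoots after 24 h of darkness, with changes from -3.43 to -1.12 and a median of -2.34. NdhN, a subunit of that complex, fell with them. Of 6 NRPB genes, for RNA polymerase II subunits, 4 were lower and none higher, with a median of -0.93. Of 8 ALDH genes, for aldehyde dehydrogenases, 5 were higher and 1 lower, with a median of 1.09. Of 10 VPS genes, for vacuolar sorting, 5 were higher and 2 lower, and of 22 TBL genes 4 were higher and 8 lower.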
